A study of Mus musculus with 12 samples.

Results

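Atxn1, the gene that carries the knock-in allele of SCA1 mice, lies on mouse chromosome 13 among the 10 genes Jarid2, Dtnbp1, Mylip, Gmpr, Rbm24, Cap2, Nup153, Kif13a, Kdm1b and Dek. These neighbours were chosen by symbol and position as a check on local effects of the knock-in allele, and all 10 were found among the 15759 rows of a table of normalized counts per gene. SCA1 KI mice [Atxn1 154Q/2Q] carry 154 glutamine codons in 1 Atxn1 allele and 2 in the other, under the endogenous control of the gene, and their controls were Wild-type (WT) littermates without the expansion. Both genotypes were on the C57BL/6J strain and were taken at 12 weeks of age with no treatment. Poly-adenylated RNA of macrodissected cortex and cerebellum was sequenced, which gave 4 groups of 3 libraries, 12 in all. The mice were male according to the labels and of both sexes according to the methods of the study, and the counts do not separate the Atxn1 alleles.

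The 10 neighbours have unrelated functions. They include a Polycomb cofactor, a histone demethylase, a chromatin protein, a nuclear pore protein, a kinesin, an actin regulator, an RNA-binding protein, a purine enzyme, a ubiquitin ligase and a subunit of a lysosome biogenesis complex. A change made in 1 gene of the genome can alter its neighbours, through shared regulatory DNA, a changed chromatin domain or transcripts that run from one gene into the next, and a marked allele also carries with it the sequence variants linked to it.

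Each library held between 29520855 and 51311309 reads assigned to genes, of which the 10 most abundant genes accounted for 2.44% to 4.25%. Markers of granule cells and of cortical excitatory neurons set the tissues apart. The summed normalized counts of 10 markers of cerebellar granule cells were 4355 to 5761 in the cortex and 162620 to 231484 in the cerebellum, and those of 10 markers of cortical excitatory neurons were 67312 to 99284 in the cortex and 20644 to 29186 in the cerebellum. Within the cerebellum, WT library 2 stood apart, with a granule cell sum of 162620 against 223155 and 231484 in WT libraries 6 and 4, and an oligodendrocyte sum of 288990 against 215060 and 194041. It was also the lowest WT library of the cerebellum for 8 of the 10 neighbours and the highest for the other two, Dtnbp1 and Gmpr. Choroid plexus markers set other libraries apart, with summed counts of 122565 in WT library 4, 125824 in SCA1 KI library 5 and 7425 in SCA1 KI library 1 against 38384 to 46034 in the other 3 cerebellar libraries, and the part of these cells in the neighbours' levels was not tested. Markers of 2 further lists differed between the genotypes in the cerebellum. Thalamus and midbrain sums were 7631 to 9288 in WT and 4869 to 5138 in SCA1 KI, and 8 of 11 markers were lower DEGs. Oligodendrocyte sums were 194041 to 288990 in WT and 164146 to 165495 in SCA1 KI, and 3 of 10 markers (Cldn11, Mal and Opalin) were lower DEGs. The part of these differences in the neighbours' cerebellar levels was not tested. No neighbour was a cerebellar DEG in any of the fits that left out 1 library. In the cortex, WT library B had a striatal marker sum of 26365 against 16009 and 17300 in WT libraries C and D. Its oligodendrocyte sum was 148706 against 94648 and 88176. SCA1 KI library A had an astrocyte sum of 157462 against 221055 and 207510 in libraries E and F. The part of these cells in the cortical levels was not tested. Over all genes A lay further from E and F (chi-square 33.6 and 36.7 per gene) than E from F (10.5).

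Genotypes were compared with limma on log2(normalized count + 1) over the 15369 genes whose mean reached 10 normalized counts, and all 10 neighbours passed this filter, with 262 reads as their lowest value in any library. The log2 fold change (LFC) is SCA1 KI minus WT. DEGs were genes with an absolute LFC over 0.25 and a p under 0.05 after Benjamini-Hochberg adjustment over all tested genes.

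Atxn1 encodes ataxin-1, a nuclear protein that acts with the repressor Capicua, and lies from 45549755 to 45965008 on the minus strand (GRCm38). Its normalized counts in the cortex were 8147, 7443 and 6521 in WT libraries B, C and D and 4604, 7249 and 6267 in SCA1 KI libraries A, E and F. The groups overlapped, with library A the lowest of the 6. The cortical LFC of Atxn1 was −0.31 (95% interval −0.59 to −0.02, adjusted p = 0.132 from limma), short of the threshold, and it ranged from −0.45 without SCA1 KI library E, where it passed (adjusted p = 0.0248 from limma), to −0.12 without SCA1 KI library A. It was −0.14 once the trend of each library on the length and GC content of transcripts had been taken out. In the cerebellum Atxn1 had 3737, 3628 and 3671 in WT libraries 2, 4 and 6 and 3812, 3717 and 4138 in SCA1 KI libraries 1, 3 and 5 (LFC 0.08, interval −0.20 to 0.36, adjusted p = 0.837 from limma). Atxn1 itself was thus a DEG in neither region.

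**Figure D1:**
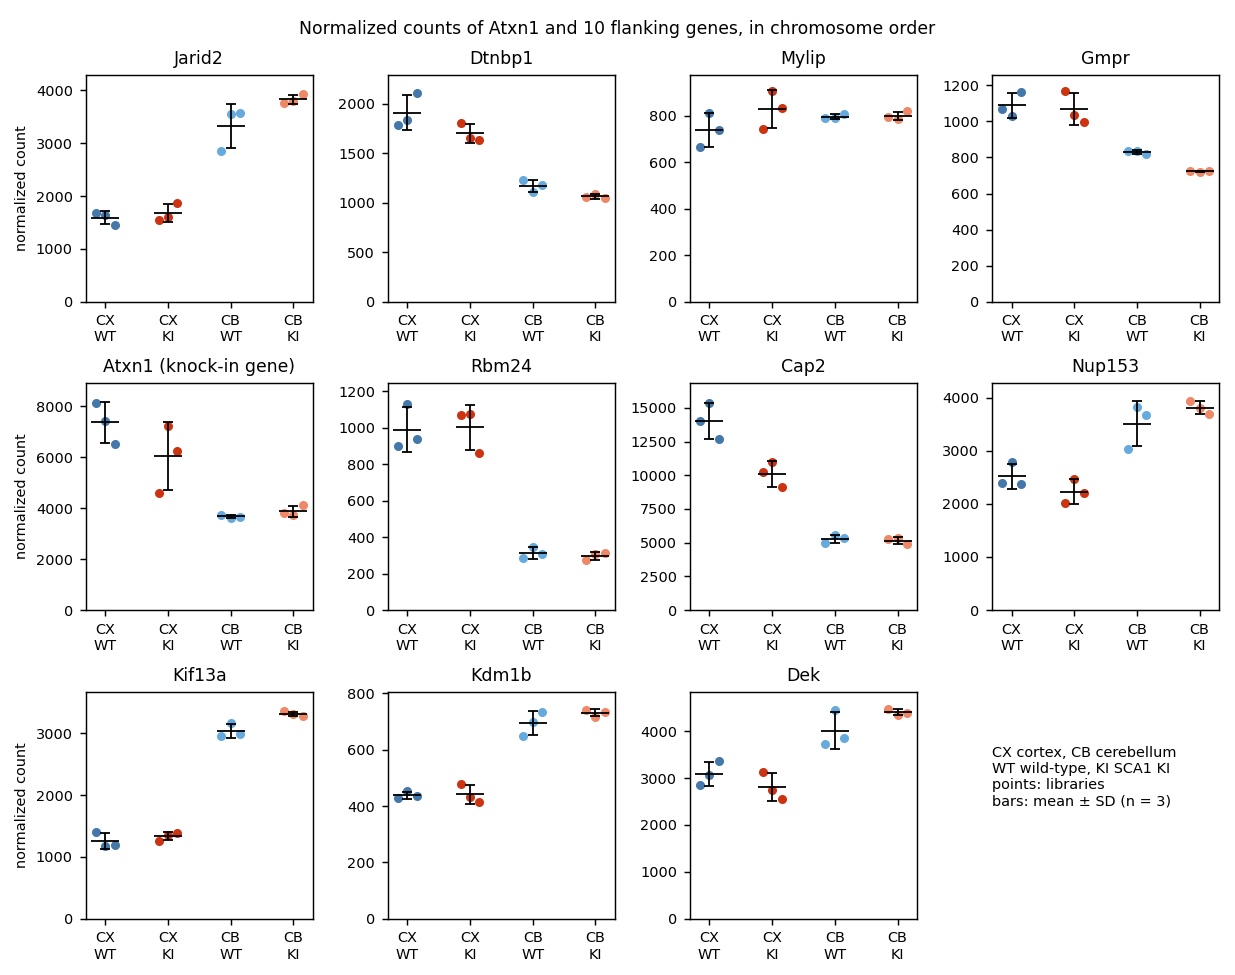
Normalized counts of Atxn1 and the 10 flanking genes in chromosome order, on the vertical axis, for the 4 groups of region (CX cortex, CB cerebellum) and genotype (WT, KI for SCA1 KI). Points are libraries and bars the mean ± SD of 3 libraries; the SCA1 KI cortex libraries of Cap2 (9107 to 11003) all lie below the WT cortex libraries (12717 to 15355), and the largest steps in most other panels are between regions.

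In the cortex, Cap2 was the only DEG among the 10 neighbours, and it was lower in SCA1 KI. Cap2, which encodes a cyclase-associated protein that binds actin monomers and promotes the turnover of actin filaments, lies from 46501848 to 46650281 on the plus strand, 537 kb beyond the start of Atxn1, with Rbm24 between them. Its normalized counts were 14026, 15355 and 12717 in WT cortex libraries B, C and D and 10206, 11003 and 9107 in SCA1 KI cortex libraries A, E and F. Every SCA1 KI library lay below every WT library. The mean fell from 14033 ± 1319 to 10105 ± 952 (SD, n = 3 each), a ratio of 0.720 with a 95% interval of 0.636 to 0.816. The LFC was −0.47 (interval −0.65 to −0.29, adjusted p = 0.00186 from limma). The call did not rest on 1 library, since with each of the 12 libraries left out in turn the LFC was −0.54 to −0.40 and passed each time.

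One DEG of 10 is to be read against 15.6% of all tested genes that were DEGs in the cortex, 741 higher and 1661 lower, and against 10.8% that were lower DEGs. The split of higher and lower DEGs depended on the scaling, with 1030 higher and 1311 lower once that trend was removed, whereas Cap2 kept an LFC of −0.47 there. Separate libraries of the genotypes, as in Cap2, were seen for 30.9% of all tested genes in the cortex. The median LFC of the 10 neighbours was −0.01, against −0.003 for all tested genes.

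Markers of several cell types were lower in the same SCA1 KI cortex libraries. Of 10 markers of cortical excitatory neurons, 3 fell (Slc17a7, Cux2 and Rorb) and none rose, and their summed normalized counts were 96097 to 99284 in WT and 67312 to 79535 in SCA1 KI. For astrocytes 7 of 10 markers fell and none rose, with sums of 305260 to 307205 in WT and 157462 to 221055 in SCA1 KI. In a list of 10 Purkinje cell markers, several of which cortical neurons also express (Calb1, Pvalb and Gad1 among them), 6 fell and 1 rose, and the sums were 66114 to 71520 in WT and 41341 to 47234 in SCA1 KI. No cortical excitatory neuron or astrocyte marker was at 0 in a cortex library. In bulk tissue, fewer cells of a type and less RNA per cell cannot be told apart, and the part of these cell types in the level of Cap2 was not tested.

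Other cell types were counted in the same way. No marker of granule cells, choroid plexus, oligodendrocytes, microglia or endothelium was a cortical DEG. Of 9 striatal markers 3 fell, of 11 thalamus and midbrain markers 4 rose and 1 fell, and both blood markers tested fell. Pou4f1 rose from a mean of 4.20 to 271 normalized counts (LFC 5.76) and Shox2 from 0 to 34.3. Lhx9 (2.57) and Tal1 (2.38) rose too, and Rgs16 fell (−0.83). The rest of this list were not DEGs. Of them, Tcf7l2 (−0.03), Lef1 (−0.25), Prkcd (−0.10) and Plekhg1 (−0.29) had negative LFCs, and Gata3 (2.34) and Otx2 (0.38) positive ones. The sums of the 11 thalamus and midbrain markers were 1936.5 to 2236 in WT and 2427 to 2797 in SCA1 KI. The part of that tissue in the cortical levels was not tested. Among the 12119 genes whose mean reached 100 normalized counts, the patterns over the 12 libraries most like that of Cap2, by the root mean square difference of centred log2 values, were those of Tmem198 on chromosome 1 (0.0949), Ube2ql1 on chromosome 13 (0.102) and Cdh12 on chromosome 15 (0.102), against a median of 0.664 for all these genes. Their LFCs in the cortex were −0.47, −0.43 and −0.53, near that of Cap2 by construction, since they were chosen by likeness over these same libraries.

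The promoter of Cap2 also differs in letters from those of its neighbours. The sequences below, from RefSeq on GRCm38.p6, run from 250 to 101 bases before the RefSeq start of Cap2 and of the genes on either side of it. These starts differ from the gene bounds given in the text, which come from another annotation (GENCODE). The sequences are written 5′ to 3′ on the strand of the gene, with every CpG in capitals. They lie at chr13:46418050-46418199 on the plus strand (Rbm24), chr13:46501653-46501802 on the plus strand (Cap2) and chr13:46727950-46728099 on the minus strand (Nup153), and are shown because Cap2 was a DEG in the cortex while the genes on both sides were not.
Rbm24: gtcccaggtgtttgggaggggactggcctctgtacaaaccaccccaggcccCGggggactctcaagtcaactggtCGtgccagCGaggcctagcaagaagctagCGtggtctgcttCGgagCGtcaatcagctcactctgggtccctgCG
Cap2: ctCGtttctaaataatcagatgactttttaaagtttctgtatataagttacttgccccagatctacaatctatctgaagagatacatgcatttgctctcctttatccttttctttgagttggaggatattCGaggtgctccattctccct
Nup153: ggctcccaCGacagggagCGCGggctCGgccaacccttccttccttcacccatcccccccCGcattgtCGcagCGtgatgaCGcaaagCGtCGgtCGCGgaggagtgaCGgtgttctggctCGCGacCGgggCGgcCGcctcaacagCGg
These stretches hold 7, 2 and 19 CpGs. Over the whole RefSeq promoter window, from 250 bases before to 50 after the start, Cap2 has 9 CpGs and a GC content of 48.3%, whereas the 10 windows of the other neighbours (Jarid2 has 2) hold 15 to 62 CpGs with a median of 27.5. Cap2 is not unusual among all 32851 windows, whose median is 7 CpGs and of which 56.5% hold no more than Cap2. The octamers TGAATGAA and TGAATGGA, which Capicua binds, occurred on neither strand of any window of the 10 neighbours, against 2.47% of all windows with either of them. These are descriptions of the letters in these windows only.

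The other 9 neighbours had LFCs between −0.18 and 0.16 in the cortex. Their 95% intervals together spanned −0.39 to 0.35, which leaves room for changes up to that size. Gmpr encodes a reductase that turns GMP back into IMP, lies at 45507444 to 45553800 on the plus strand and shares 375 bases of exon with Atxn1 on the opposite strand, so reads there cannot be assigned with certainty where the counting ignored the strand, which the sources used here do not state. Its cortex counts were 1072, 1032 and 1166 in WT libraries B, C and D and 1167, 1038 and 997 in SCA1 KI libraries A, E and F, which overlapped (LFC −0.03, interval −0.19 to 0.13, adjusted p = 0.812 from limma).

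Mylip (45389742 to 45412022, plus strand, 138 kb from Atxn1) encodes a ubiquitin ligase that marks lipoprotein receptors for degradation. It had 668, 814 and 740.0 in the WT cortex and 744, 908 and 833 in the SCA1 KI cortex, in the order of libraries given above (LFC 0.16, adjusted p = 0.238 from limma), and the groups overlapped. Rbm24 (46418434 to 46431095, plus strand, 453 kb away) encodes an RNA-binding protein known as a splicing regulator of muscle. Its cortex counts were 899.6, 1130.5 and 938 in WT and 1067, 1074 and 860.5 in SCA1 KI, an LFC of 0.02 (interval −0.24 to 0.27). These groups lay on top of each other.

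On the far side of Gmpr and Mylip lie Dtnbp1 and Jarid2. Dtnbp1 (44922075 to 45002147, minus strand) encodes dysbindin, a subunit of the BLOC-1 complex that sorts proteins to lysosome-related organelles and synaptic vesicles. With 1792, 1835 and 2114 in WT and 1811, 1659 and 1639 in SCA1 KI cortex, it had the lowest unadjusted p after Cap2 among the neighbours (LFC −0.17, interval −0.33 to −0.004), under 0.05 as for 30.5% of all tested genes, and 1 SCA1 KI library, A, lay within the WT range. Its adjusted p of 0.154 from limma did not pass. Jarid2 (44729474 to 44921643, plus strand), a cofactor that guides the Polycomb complex PRC2 to its sites, had 1673, 1643 and 1445 in WT and 1544, 1603 and 1863 in SCA1 KI cortex (LFC 0.07, adjusted p = 0.665 from limma), with overlapping groups.

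Beyond Cap2, the cortical values of Nup153 and Dek were mostly lower in SCA1 KI and those of Kif13a mostly higher, none past the threshold. Nup153 (46679905 to 46727940, minus strand), a protein of the basket on the inner face of the nuclear pore, lies next to Cap2 and had 2392, 2784 and 2375 in WT and 2007, 2473 and 2204 in SCA1 KI (LFC −0.18, adjusted p = 0.251 from limma). Kif13a (46749087 to 46929867, minus strand), a kinesin that carries endosomal and mannose-6-phosphate receptor cargo, had 1399.8, 1176 and 1195 in WT and 1262, 1352 and 1394 in SCA1 KI (LFC 0.09, adjusted p = 0.426 from limma). With the trend on length and GC content removed, the LFC of Kif13a was 0.25 and its adjusted p 0.0137 from limma, just under the limit on the LFC. The libraries of the genotypes overlapped for both.

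At the far end, Kdm1b (47043499 to 47085279, plus strand), a demethylase of lysine 4 of histone H3, had 429, 453 and 434 in WT and 478, 431 and 414 in SCA1 KI cortex (LFC 0.01, interval −0.16 to 0.18). Dek (47084775 to 47106201, minus strand), a chromatin protein that binds DNA and histones, shares 505 bases of exon with Kdm1b on the opposite strand. It had 2845, 3072 and 3355 in WT and 3126, 2755 and 2549 in SCA1 KI (LFC −0.14, adjusted p = 0.318 from limma). The genotypes overlapped for both of these genes too.

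**Figure D2:**
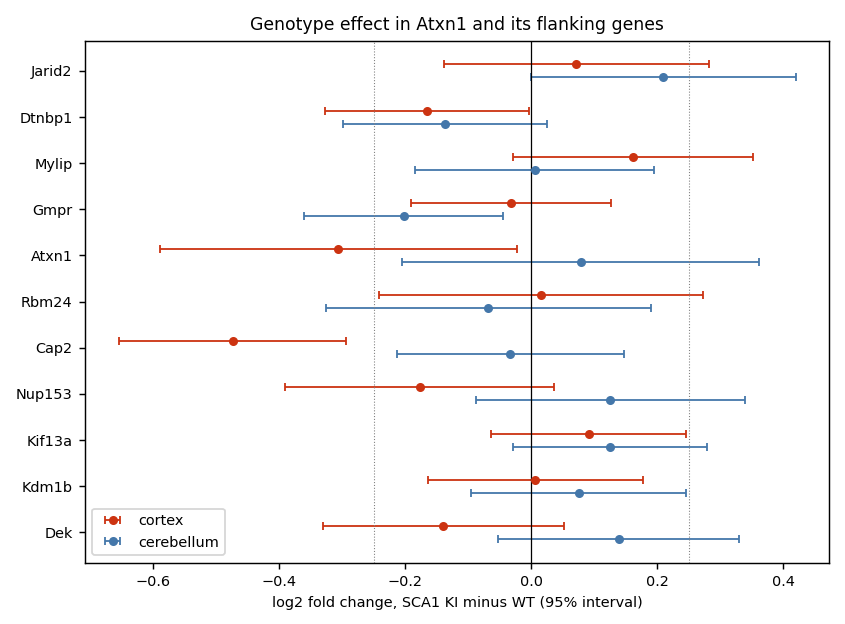
Log2 fold change of SCA1 KI minus WT on the horizontal axis, with its 95% interval from limma, for Atxn1 and the 10 flanking genes in chromosome order in the cortex (red) and the cerebellum (blue). Dotted lines mark the limit of 0.25 in either direction; Cap2 in the cortex, at −0.47 with an interval of −0.65 to −0.29, is the only interval that lies wholly outside them.

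In the cerebellum, none of the 10 neighbours was a DEG, by limma, edgeR or DESeq2 alike, and 1, Gmpr, had an unadjusted p under 0.05, as did 17.3% of all tested genes. Of all tested genes 5.36% were DEGs in this region and 4.44% were lower DEGs, 141 higher and 683 lower (536 and 584 with the trend on length and GC content removed). Cap2 had 4960.2, 5539 and 5344 in WT libraries 2, 4 and 6 and 5286, 5319.8 and 4878 in SCA1 KI libraries 1, 3 and 5. The genotypes were mixed, with an LFC of −0.03 (−0.08 without WT library 2) and an interval of −0.21 to 0.15. A fall as large as the cortical estimate lies outside this interval.

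Gmpr gave the tightest groups of any neighbour. It had 838, 837 and 820.0 in the WT cerebellum and 723, 722 and 723 in the SCA1 KI cerebellum, so the groups lay apart. The LFC was −0.20 (interval −0.36 to −0.04, adjusted p = 0.152 from limma), and it was −0.08 with the trend on length and GC content removed. With the cerebellum fitted on its own the adjusted p of Gmpr was 0.0532 from limma.

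The genotypes did not overlap in the cerebellum for 4 of the 10 neighbours, against 31.8% of all tested genes. Besides Gmpr these were Dtnbp1 (1229, 1108 and 1182 in WT against 1055, 1093 and 1050.4 in SCA1 KI), Jarid2 (2854, 3562 and 3579 against 3770.2, 3795 and 3933) and Kif13a (2958, 3171 and 2998 against 3359, 3308 and 3283). Jarid2 and Kif13a were higher in SCA1 KI, with LFCs of 0.21 and 0.13, and Dtnbp1 was lower, with an LFC of −0.14. None passed, with adjusted p of 0.292, 0.412 and 0.386 from limma. Without WT library 2 the LFC of Jarid2 was 0.10, that of Kif13a 0.11 and that of Dtnbp1 −0.10, and with the trend on length and GC content removed Dtnbp1 had −0.02.

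The other 5 had overlapping cerebellar groups. Nup153 had 3030.2, 3819.6 and 3674 in WT and 3932, 3811 and 3686 in SCA1 KI, and its LFC of 0.13 dropped to 0.02 without WT library 2. Dek had 3719, 4458 and 3851 in WT and 4474, 4349.7 and 4385 in SCA1 KI (LFC 0.14, interval −0.05 to 0.33). WT library 2 was the low one for Nup153 and WT library 4 the high one for Dek, whose LFC was 0.09 without library 2 and 0.22 without library 4.

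Mylip was the steadiest in the cerebellum, with 789.7, 793 and 808 in WT and 795, 785 and 820.0 in SCA1 KI (LFC 0.01, interval −0.18 to 0.20). Rbm24 had 285, 348 and 305 in WT and 273, 309.7 and 311 in SCA1 KI (LFC −0.07, and −0.13 without WT library 2), and Kdm1b had 649, 699.9 and 735 in WT and 742, 718 and 734 in SCA1 KI (LFC 0.08, and 0.03 without WT library 2). Over the 10 neighbours the median LFC in the cerebellum was 0.04, against −0.005 for all tested genes, and the intervals together spanned −0.36 to 0.42.

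The LFC of Cap2 differed between the regions in the test of the difference itself. The paper calls the cerebellar data an earlier set of the same laboratory, so region and experiment cannot be told apart here or in the WT levels below. The cortical minus the cerebellar LFC of Cap2 was −0.44 (interval −0.70 to −0.19, adjusted p = 0.0366 from limma), 1 call among the 10 neighbours against 8.15% of all tested genes. This call was near the threshold and was lost in 7 of the 12 fits that left out 1 library, with differences from −0.51 to −0.37 over all 12. The difference was −0.40 without WT cerebellum library 2 (adjusted p = 0.0800 from limma), and the call was likewise lost without WT cerebellum library 6, SCA1 KI cerebellum libraries 1 or 3, WT cortex libraries B or C, or SCA1 KI cortex library F. Nup153 and Dek had unadjusted p under 0.05 for this difference, at −0.30 and −0.28, but not adjusted ones (0.233 and 0.218 from limma). With Cap2 that made 3 of 10, against 21.4% of all tested genes with an unadjusted p under 0.05. For the remaining 7 the differences lay between −0.14 and 0.17.

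More of the neighbours differed between regions than between genotypes. Between WT cortex and WT cerebellum 9 of the 10 passed, against 61.7% of all tested genes, 4 of them higher in the cortex (31.0% of all) and 5 lower (30.7%). Rbm24 was 3.15 times as high in the WT cortex (989 ± 124 against 313 ± 32.3 normalized counts, SD, n = 3 each) and Cap2 2.65 times (14033 ± 1319 against 5281 ± 295). Their log2 differences were 1.66 and 1.41, with adjusted p of 6.2e-08 and 9.72e-09 from limma. Dtnbp1 (0.70) and Gmpr (0.39) were higher in the cortex by less, and the call of Gmpr was lost with the trend on length and GC content removed.

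The neighbours higher in the cerebellum were those that act on chromatin or the nuclear pore, and the kinesin. Kif13a had the widest such step, with 1257 ± 124 in the WT cortex and 3042 ± 113 in the WT cerebellum (SD, n = 3 each), a log2 difference of −1.28 (adjusted p = 5.52e-09 from limma). Jarid2 followed at −1.06, then Kdm1b at −0.66, Nup153 at −0.48 and Dek at −0.37. Mylip did not pass (−0.11, interval −0.30 to 0.08), with 668 to 814 in the WT cortex and 789.7 to 808 in the WT cerebellum. Along the chromosome, Jarid2 came first and was higher in the cerebellum. From Dtnbp1 to Cap2, every gene that passed was higher in the cortex, Atxn1 included (1.00), and Mylip lay among them. Nup153, Kif13a, Kdm1b and Dek, beyond Cap2, were all higher in the cerebellum.

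Per kb of annotated exon, which allows levels of different genes to be compared, Cap2 was the most abundant neighbour in the cortex, and Cap2 and Dek were the most abundant in the cerebellum. In the WT cortex the mean normalized count per kb was 3374 ± 317 for Cap2 and 970.4 ± 80.3 for Dek (SD, n = 3), followed by Dtnbp1 (513 ± 47.0) and Gmpr (469 ± 29.6), whose SDs overlap, then Nup153 (359 ± 32.9), Rbm24 (283 ± 35.4), Mylip (229 ± 22.6), Jarid2 (163 ± 12.8), Kif13a (155 ± 15.3) and Kdm1b (79.8 ± 2.30). Rbm24 and Mylip, and Jarid2 and Kif13a, likewise had overlapping SDs. In the SCA1 KI cortex Cap2 still led with 2429.8 ± 229. In the WT cerebellum Cap2 (1269.8 ± 70.8) and Dek (1259 ± 124) lay within their SDs, and in the SCA1 KI cerebellum Dek had 1382 ± 20.1 and Cap2 1241 ± 59.1. Rbm24 was the lowest there, at 85.3 ± 6.16.

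**Figure D3:**
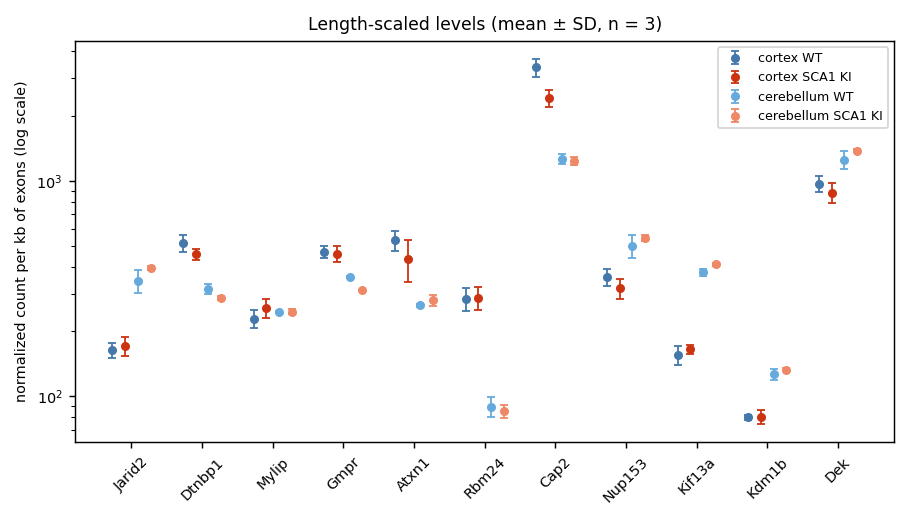
Mean normalized count per kb of exon (log scale, vertical axis) of Atxn1 and the 10 flanking genes in the 4 groups, with bars for the SD of 3 libraries. Cap2 in the WT cortex (3374) is the highest value and Kdm1b in the WT cortex (79.8) the lowest. Among the flanking genes, the WT and SCA1 KI points of a region lie close together except for Cap2 in the cortex. Atxn1 in the cortex has 530 ± 58.6 in WT and 434 ± 96.1 in SCA1 KI.

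The genes that work with the neighbours were counted in 11 lists. No member of the list of actin filament turnover (12 genes with Cap1, the cofilins, profilins, slingshots and LIM kinases) was a DEG in either region, and Cap1, the paralog of Cap2, had a cortical LFC of −0.20 whose adjusted p was 0.0292 from limma but which stayed under the limit on the LFC. In the cerebellum Cap1 had −0.07. None of 11 nucleoporins around Nup153 was a DEG in either region. The paralogs Kif13b (−0.22), Kdm1a (−0.01) and Rbm38 (0.18) were not cortical DEGs either.

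Over all 11 lists, 16 of 112 tested genes were cortical DEGs (14.3%, against 15.6% of all tested genes), in both directions. All 16 were in the other 9 lists. Of 13 purine enzymes Gmpr2, the paralog of Gmpr, rose (LFC 0.31, adjusted p = 0.0305 from limma) and the adenylosuccinate synthase Adssl1 fell (−0.55). Of 7 BLOC-1 subunits Bloc1s5 rose (0.34), of 10 PRC2 genes Phf1 rose (0.37), of 4 splicing regulators related to Rbm24 Rbm20 fell (−0.72), and of 12 genes of lipoprotein receptor turnover Srebf2 fell (−0.28). Of 12 kinesin-3 motors and adaptors Ap1m1 rose (0.25) while Ap1s1 (−0.52) and Kif1c (−0.35) fell. Of 11 genes around the demethylases Hdac1 (0.31) and Hdac2 (0.26) rose, and of 17 histone chaperones Asf1b (1.01), Nap1l5 (0.37) and Nap1l3 (0.26) rose and Hira (−0.27) fell. Of the 3 ataxin-1 partners Cic, which encodes Capicua, fell (−0.29).

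In the cerebellum 2 of the 112 tested partners of all 11 lists were DEGs (1.79%, against 5.36% of all tested genes). Gda, which encodes guanine deaminase, fell (LFC −3.01, adjusted p = 6.52e-06 from limma), and so did Rcor2, a corepressor that joins the H3K4 demethylase Kdm1a (−1.11, adjusted p = 0.00285 from limma). Their WT means were 383 and 90.0 normalized counts. Of the 11 thalamus and midbrain markers 8 fell in the same libraries, from sums of 7631 to 9288 in WT to 4869 to 5138 in SCA1 KI, and the part of that tissue in these levels was not tested.

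The stretch from Jarid2 to Dek holds 2 further genes of the table, both between Kif13a and Dek. Nhlrc1, which encodes malin, a ubiquitin ligase of glycogen metabolism, had 582, 619 and 661 in the WT cortex and 707, 758 and 700.1 in the SCA1 KI cortex, and 552, 533 and 507 in the WT cerebellum and 607, 609.7 and 623 in the SCA1 KI cerebellum. SCA1 KI libraries lay above WT libraries throughout in both regions. The LFCs of 0.22 and 0.21 had adjusted p of 0.0612 and 0.14 from limma and did not pass. Tpmt, thiopurine methyltransferase, had LFCs of 0.00 and −0.11.

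Counting outward, 54 other genes of the table lie within 5 Mb of Atxn1, of which 53 were tested. In the cortex 14 were DEGs, 6 higher and 8 lower (26.4%), against 15.6% of all tested genes and 15.8% of the 550 tested genes of chromosome 13, and in the cerebellum 2 (3.77%). With the 10 neighbours left out in the same way, 1 of 10 genes within 2 Mb (10%) and 27 of 128 within 10 Mb (21.1%) were cortical DEGs. With the cortex fitted on its own, 7 of the 53 passed, against 1719 of all 15369 tested genes in that fit. These counts are descriptions.

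The nearest DEG outside the stretch was Rnf144b (47122656 to 47247991, plus strand), a ubiquitin ligase gene next to Dek, at 1698, 1578 and 1945 in WT and 1505, 1373 and 1223 in SCA1 KI cortex. All SCA1 KI libraries were lower (LFC −0.35, adjusted p = 0.0182 from limma). Phactr1 (−0.50), Gfod1 (−0.75), Wnk2 (−0.45), Smim13 (−0.30), Elovl2 (−0.26) and Id4 (−0.35) were lower too, and Ninj1 (0.63), Fbxw17 (0.46), Sirt5 (0.37) and Tfap2a (2.06) were higher. Barx1, a homeobox gene, had 0 reads in all 3 WT cortex libraries and 243, 73.9 and 32.4 normalized counts in SCA1 KI libraries A, E and F, at least 33.9-fold higher against a floor of 3 reads per library, or 15.5-fold without library A. In the cerebellum Elovl2, an elongase of polyunsaturated fatty acids, rose (0.35) and Id4 fell (−0.43).

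**Figure D4:**
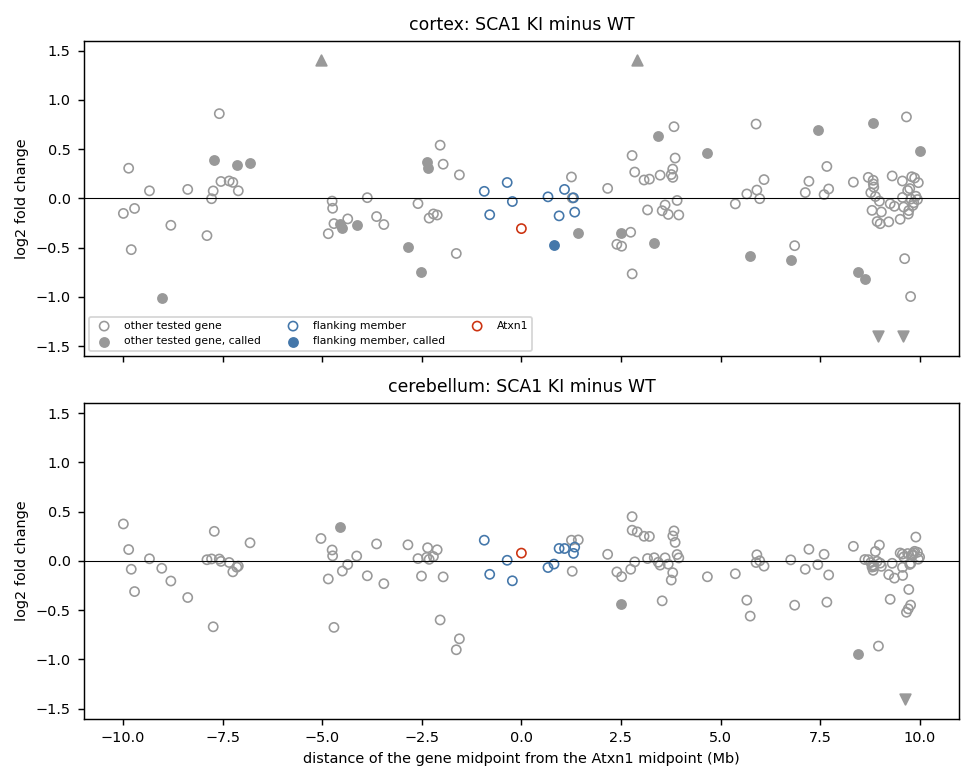
Log2 fold change of SCA1 KI minus WT in cortex (top) and cerebellum (bottom) against the distance of each gene's midpoint from that of Atxn1 in Mb, for tested genes within 10 Mb. Filled symbols are DEGs, triangles mark values beyond 1.4 in either direction drawn at the edge, and among the flanking genes only Cap2 in the cortex (−0.47) is filled.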

How the data were processed

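Poly-adenylated RNA of cortex and cerebellum was sequenced as paired ends in 12 libraries. Per the labels and the methods, STAR placed the reads on mm10, featureCounts tallied them per gene and DESeq2 normalized the tallies, all by the authors. The deposited signal is the normalized count, reads divided by 1 size factor per library, and 100% of values came out as whole reads within 0.01 of a read, which were recovered for edgeR and DESeq2. Of 15759 entries, 15369 had a mean of at least 10 and were tested. Reads per library (29520855 to 51311309) limit the precision of each count. Where nothing says that replicates came from separate animals beyond the label of a biological replicate, p-values measure the spread between these libraries. Replicates of a group differed by more than sampling noise allows (chi-square 7.55 to 36.7 per gene), and none was treated as a copy.

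log2(normalized count + 1) was modelled by 4 group means with limma 3.58.1 (R 4.3.3, empirical Bayes, mean-variance trend), which understates fold changes of low genes. Alternatives were a pseudocount of 0.5 or 5, a minimum mean of 100 or none, each region alone, median centring, edgeR 4.0.16, DESeq2 1.42.0, no limit on the LFC, removal of the trend on length and GC content (14639 genes), 12 fits without 1 library each, and windows of 2 and 10 Mb. The fits were checked on simulated counts. Coordinates are from GENCODE vM21 on GRCm38 (15009 of 15758 symbols matched) and promoters from RefSeq on GRCm38.p6, which lists no window for Atxn1.

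The 10 genes, the partner lists, the marker lists and the tests were chosen with earlier results of these data known. Named in the text were the 10 genes and Atxn1, tested genes between Jarid2 and Dek, at most 12 DEGs of the 5 Mb window (smallest p first), paralogs and DEGs of the partner lists (at most 20), and for a neighbour that was a DEG the 3 genes with the most similar pattern.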

Additional observations from a re-analysis of the deposited data

Results flagged for a closer look

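Cap2 and 8 genes outside the stretch from Jarid2 to Dek, but within 5 Mb of Atxn1, had a genotype effect that differed between cortex and cerebellum at an adjusted p under 0.05 in limma, all by the test of the difference of their LFCs (cortex minus cerebellum). Cap2 was the 1 flanking gene among them, at −0.44 (adjusted p = 0.0366 from limma). It was lower in 3 of 3 SCA1 KI cortex libraries and mixed in the cerebellum.

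The other 8 lie 1 to 5 Mb from Atxn1. More negative in the cortex were Phactr1 (−0.66), Elovl2 (−0.61), Rnf144b (−0.56) and Wnk2 (−0.48), of which Elovl2 passed in opposite directions in the regions (−0.26 in the cortex and 0.35 in the cerebellum). More positive in the cortex were Tfap2a (1.83), Ninj1 (0.64), Fbxw17 (0.62) and Barx1, whose fitted difference of 6.11 depends on the pseudocount, since its WT cortex libraries hold 0 reads. Of the 53 other tested genes within 5 Mb, 15.1% passed this test, against 8.15% of all tested genes.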

How the results depend on the processing

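No paired analysis was possible because the columns of the deposited table carry marks of their own and no replicate number of the labels. Of the results that count genes, 116 values under an alternative stayed within 1.5 times the reported count and 18 moved beyond it. Of the LFCs of single genes, 650 kept their direction and side of the threshold, 7 dropped below it, 1 passed it and 24 changed sign, the last all for differences that had not passed. The LFC of Cap2 in the cortex passed under every alternative (−0.47 to −0.46 with all libraries). The difference of Cap2 between regions passed under every alternative with all libraries (−0.52 to −0.42), and over the leave-one-out fits the number of neighbours with a call was 0 to 1. With the trend on length and GC content removed, sign changes gave Gmpr 0.013 in the cortex, Rbm24 0.034 and Cap2 0.046 in the cerebellum, and Rbm24 −0.018 and Kif13a 0.043 for the difference between regions. With 1 library left out, cortical LFCs ranged from −0.0094 to 0.13 for Jarid2, −0.098 to 0.018 for Gmpr, −0.049 to 0.12 for Rbm24 and −0.052 to 0.050 for Kdm1b. Cerebellar ones ranged from −0.012 to 0.019 for Mylip, −0.13 to 0.012 for Rbm24 and −0.077 to 0.0074 for Cap2, and differences between regions from −0.074 to 0.045 for Dtnbp1 and −0.080 to 0.046 for Kif13a. The cortical LFC of Atxn1 ranged from −0.45 to −0.12. Other DEGs within 5 Mb in the cortex numbered 7 with each region alone, 1 within 2 Mb and 27 within 10 Mb, and 10 to 15 with 1 library left out. In the cerebellum they numbered 4 with each region alone, 5 with the trend on length and GC content removed, 0 within 2 Mb and 4 within 10 Mb, and 0 to 3 with 1 library left out (0 without SCA1 KI library 3, and 1 without SCA1 KI library 1, WT library 4 or WT library 6). A smaller or larger window counts fewer or more genes by construction, and the cause of the other moves was not tested. Fitting each region alone gives no difference between regions. With 3 libraries a group, an exact permutation test of a single gene cannot go below p = 0.1.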
